A study of Homo sapiens with 18 samples.

Results

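The transcripts described here are those of 10 genes that make, activate, move and attach sialic acid: GNE, NANS and CMAS, the transporter SLC35A1, and the sialyltransferases ST6GAL1, ST3GAL1, ST3GAL2, ST3GAL4, ST3GAL6 and ST6GALNAC4. They were taken by gene name from 36601 gene IDs in each of 18 RNA-seq libraries of polyadenylated RNA. They were selected on measured values, with their fold changes under the RNF213 hairpin in each line and their differences between control lines already known. Those values are therefore given as a description, without p-values, and support nothing by themselves.

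The libraries come from 3 human cholangiocarcinoma lines, YSCCC (labelled liver), KKU-100 (biliary tract) and HuCCT1 (bile duct). Each line carried, as a stable lentiviral integration, either 1 short hairpin against RNF213 (shRNF213#2, labelled RNF213 knockdown and called shRNF213 here) or a control hairpin (shControl, labelled WT), with 3 biological replicates per group. The control cells thus also carry a lentiviral hairpin, 1 hairpin stands for the knockdown, and the labels do not say that several clones were used. The basal medium of KKU-100 was a different one from that of YSCCC and HuCCT1, and its part cannot be told apart from that of the line. RNF213 is a large ubiquitin ligase of the cytosol. Its level was lower in the shRNF213 library of all 9 same-number pairs, with log2 ratios between -1.57 and -0.51.

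Sialic acid is the negatively charged sugar that caps the glycans of cell-surface and secreted proteins. Its precursor is made in the cytosol, activated to CMP-sialic acid in the nucleus and carried into the Golgi by SLC35A1. There it is attached to galactose or N-acetylgalactosamine by sialyltransferases, which differ in linkage or in acceptor. Biliary cancers are known for sialylated glycans, among them the sialyl Lewis antigens.

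Library totals ran from 21056732 to 25502097 counts, and all 10 genes passed the filter on low counts in every fit, with 7 to 6263 counts per gene and library. Levels are in CPM, which are counts scaled to library size with TMM factors. The label check gave a mixed picture for KKU-100. Its KRT19 and EPCAM, defining markers of biliary epithelium, lay at no more than 0.179 and 0.133 CPM in all 6 libraries, while KRT7 ranged from 75.5 to 191 CPM and SOX9 from 145 to 298 CPM. YSCCC and HuCCT1 expressed all 6 biliary markers. Of 4 hepatocyte markers, ALB, APOA1 and TTR reached no more than 0.361 CPM in any library, while SERPINA1 stood at 202 to 280.1 CPM in HuCCT1, 2.56 to 13.5 CPM in YSCCC and 8.85 to 28.1 CPM in KKU-100. Of 5 immune markers, PTPRC, CD3E, CD79A and LYZ reached no more than 2.84 CPM, while CD68 stood at 40.6 to 116.9 CPM over all libraries. The 6 stromal markers summed to 40.5 to 254.5 CPM in shRNF213 and 64.8 to 192.5 CPM in shControl of YSCCC, with LUM at 29.7 to 237.5 CPM. Their sums were 12.8 to 41.2 CPM in shRNF213 and 7.30 to 15.98 CPM in shControl of KKU-100, and 24.4 to 41.3 CPM in shRNF213 and 17.97 to 33.4 CPM in shControl of HuCCT1. The part of these transcripts in the results was not tested. In HuCCT1 the pair numbered 2 stands apart in 15 interferon-stimulated genes, which summed to 6879 CPM in shRNF213 and 7111 CPM in shControl, against 503 to 982 CPM in the other 4 libraries of the line. In YSCCC the pair numbered 3 stands apart in 12 chaperone and ATF4 genes of the stressed endoplasmic reticulum. These summed to 4824 CPM in shRNF213 and 6303 CPM in shControl, against 2078 to 2364 CPM in the other 4. All KKU-100 libraries were high in both sets. There the interferon-stimulated genes summed to 6802 to 8753 CPM in shRNF213 and 8910 to 12850 CPM in shControl. The chaperone and ATF4 genes summed to 5428 to 7411 CPM in shRNF213 and 5341 to 7874 CPM in shControl of KKU-100. The part of either set in the results was not tested.

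**Figure D1:**
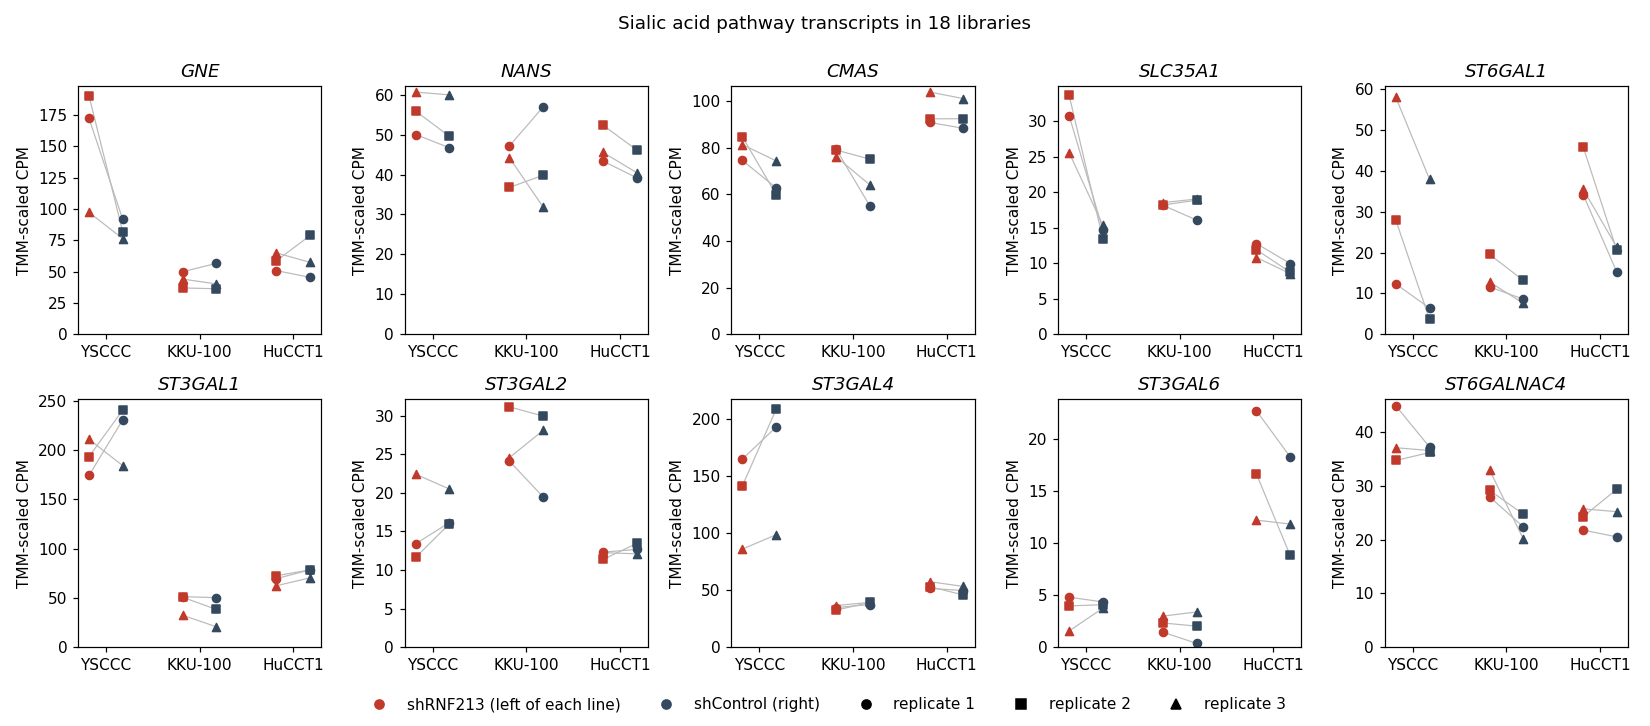
Level of each of the 10 genes in all 18 libraries, in CPM on a linear axis from 0 (1 scale per gene), by line and hairpin, with grey strokes joining the shRNF213 and shControl libraries of 1 replicate number. ST6GAL1 is higher with shRNF213 in all 9 pairs, and SLC35A1 and GNE separate the 2 hairpins in YSCCC without overlap.

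With the RNF213 hairpin, ST6GAL1 rose in HuCCT1 and YSCCC, and SLC35A1 and GNE rose in YSCCC, where "rose" means past an adjusted p of 0.05 in the edgeR quasi-likelihood fit of all genes with the replicate number as a block. No member passed in KKU-100, and none fell past the threshold in any line. Members past the threshold numbered 3 of 10 in YSCCC, where 8.25% of all genes tested passed, 0 of 10 in KKU-100, where 0.443% passed, and 1 of 10 in HuCCT1, where 0.14% passed. Because these contrasts chose the members, nothing is read from the counts or from the medians that follow. The median log2 fold change of the 10 was 0.09 in YSCCC, 0.17 in KKU-100 and 0.08 in HuCCT1, beside medians over all genes tested of 0.01, 0.00017 and -0.0015. In a fit without the block no member passed in any of the 3 lines. As in any bulk sample, fewer cells with a transcript and less of it per cell cannot be told apart.

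ST6GAL1, SLC35A1 and GNE are the genes the results turn on, so the 250 bases before their RefSeq start sites (GRCh38.p14, 5′ to 3′ on the gene's strand) are shown with motif matches in capitals. In ST6GAL1 and SLC35A1 these are the GC box GGGCGG, or CCGCCC where it lies on the other strand. In GNE they are ATTGG, the CCAAT box on the other strand. The windows are chr3:186930276-186930525 on the plus strand, chr6:87472724-87472973 on the plus strand and chr9:36276979-36277228 on the minus strand.
ST6GAL1: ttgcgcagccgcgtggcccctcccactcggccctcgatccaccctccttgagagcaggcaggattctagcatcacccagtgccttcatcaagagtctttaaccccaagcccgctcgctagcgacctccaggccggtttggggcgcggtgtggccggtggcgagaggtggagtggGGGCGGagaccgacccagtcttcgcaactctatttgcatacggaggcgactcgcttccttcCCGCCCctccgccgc
SLC35A1: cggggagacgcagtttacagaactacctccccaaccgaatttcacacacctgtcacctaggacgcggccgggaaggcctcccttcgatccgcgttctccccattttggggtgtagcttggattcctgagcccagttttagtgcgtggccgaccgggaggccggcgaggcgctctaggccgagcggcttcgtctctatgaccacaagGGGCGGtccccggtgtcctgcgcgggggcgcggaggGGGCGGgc
GNE: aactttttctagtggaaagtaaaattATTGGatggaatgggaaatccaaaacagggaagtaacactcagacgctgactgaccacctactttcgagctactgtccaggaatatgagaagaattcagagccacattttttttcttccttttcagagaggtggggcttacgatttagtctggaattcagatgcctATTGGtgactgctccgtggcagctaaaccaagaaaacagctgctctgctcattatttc
The ST6GAL1 window holds 2 GC boxes, 76 and 15 bases before the start, and the SLC35A1 window 2, at 44 and 8 bases. The GNE window holds 2 CCAAT boxes, at 224 and 58 bases, and no GC box. GNE has 2 RefSeq start sites in this set, and the window of the one nearest the gene start in the files is shown. The other window is not described, and which start these cells use was not tested. Both strands were searched with 5 motifs. The GC box was found in 42.6% of 35116 RefSeq windows of this length and CCAAT in 11240 of these windows. The other motifs, the TATA box TATAAA (10.7% of windows), the E-box CACGTG (6.34%) and the interferon response element (3.02%), did not occur in these 3 windows. GC content was 65.6% in ST6GAL1, 66.0% in SLC35A1 and 42.0% in GNE. The RefSeq start of SLC35A1 lies 2351 bases inside the gene start that the files give. A match describes letters only. Of the 10 genes, 8 had an entry, and ST3GAL1 and ST3GAL2 did not.

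GNE, the epimerase and kinase that starts sialic acid synthesis from UDP-N-acetylglucosamine and is its rate-limiting step, lies on chromosome 9. In YSCCC it stood at 172, 190.3 and 97.3 CPM in shRNF213 replicates 1, 2 and 3, against 91.7, 81.7 and 76.4 CPM in shControl. All 3 knockdown libraries lay above all 3 controls, with replicate 3 the nearest. The fitted log2 fold change was 0.83 (SD of the 3 pair ratios 0.44), and it was 1.06 without replicate 3, the pair with high stress genes. Without replicate 1 it was 0.78 and no longer past the threshold. In KKU-100, GNE was at 49.9, 37.0 and 44.1 CPM in shRNF213, against 56.7, 36.3 and 40.2 CPM in shControl. HuCCT1 gave 50.8, 58.7 and 65.0 CPM in shRNF213, against 45.5, 78.9 and 57.4 CPM in shControl. In both of these lines the groups overlapped, with fitted log2 fold changes of -0.01 and -0.03. The difference of the effect between YSCCC and KKU-100, 0.84, and between YSCCC and HuCCT1, 0.86, did not pass in the fit of all 18 libraries.

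NANS, which condenses N-acetylmannosamine phosphate with phosphoenolpyruvate to sialic acid phosphate, differed little between hairpins. In HuCCT1 it was at 43.4, 52.4 and 45.5 CPM in shRNF213, against 39.2, 46.2 and 40.5 CPM in shControl. Each knockdown library exceeded its own control by nearly the same ratio, a log2 of 0.17 (pair SD 0.018), though the groups overlapped. YSCCC gave 50.0, 55.9 and 60.6 CPM in shRNF213, against 46.7, 49.6 and 60.0 CPM in shControl, a log2 fold change of 0.10 with overlap. KKU-100 gave 47.2, 36.8 and 44.2 CPM in shRNF213, against 56.9, 39.8 and 31.9 CPM in shControl, with pairs going both ways. NANS shares 422 exonic bases with TRIM14 on the opposite strand (586 to 3993 counts). Whether the counting used strand is not stated, so reads of that stretch may belong to either gene.

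CMAS joins sialic acid to CMP and so makes the donor of all sialyltransferases. It was higher with shRNF213 in 8 of 9 pairs, by small amounts. In YSCCC it stood at 74.6, 84.7 and 81.4 CPM in shRNF213, against 62.8, 59.9 and 74.4 CPM in shControl. KKU-100 had 79.4, 79.1 and 76.1 CPM in shRNF213, against 55.1, 75.1 and 64.1 CPM in shControl. In these 2 lines the groups did not overlap, although replicate 3 of YSCCC and replicate 2 of KKU-100 came close, and the log2 fold changes of 0.29 and 0.28 did not pass. HuCCT1 was level, with 90.9, 92.4 and 103.9 CPM in shRNF213, against 88.4, 92.5 and 101.1 CPM in shControl. Without replicate 3, CMAS passed in YSCCC at 0.37.

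SLC35A1, the only known carrier of CMP-sialic acid into the Golgi, is at chr6:87470623-87512336. Of its 1994 exonic bases, 1106 are shared with AL049697.1 on the same strand, which has no entry in the deposited data. Reads of that stretch may belong to either gene, and this was not tested. For SLC35A1, YSCCC had 30.8, 33.7 and 25.6 CPM in shRNF213, against 14.7, 13.5 and 15.4 CPM in shControl. Every knockdown library lay well above every control. The log2 fold change was 1.04 (pair SD 0.30), between 0.89 and 1.19 with any 1 pair left out, and past the threshold each time. HuCCT1 had 12.8, 11.9 and 10.8 CPM in shRNF213, against 9.97, 8.75 and 8.55 CPM in shControl. These groups did not overlap either, with a log2 fold change of 0.38 (pair SD 0.055) that did not pass. KKU-100 had 18.2, 18.2 and 18.6 CPM in shRNF213, against 16.1, 18.9 and 19.1 CPM in shControl, and here the log2 fold change was 0.03. The effect in YSCCC exceeded that in KKU-100 by 1.01 on the log2 scale, the one difference between lines past the threshold among the 10 genes (2.63% of genes passed for this difference). For YSCCC minus HuCCT1, at 0.66, and KKU-100 minus HuCCT1, at -0.35, it did not pass, in comparisons where 0.047% and 0.235% of genes did. Averaged over the lines, ST6GAL1 (1.00) and SLC35A1 (0.48) passed, beside 2.9% of all genes.

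ST6GAL1 attaches sialic acid to the galactose of N-glycan branches through another carbon than the ST3GAL enzymes use, and it is encoded at chr3:186930502-187078553. In HuCCT1 it stood at 34.2, 45.9 and 35.5 CPM in shRNF213, against 15.2, 20.5 and 21.3 CPM in shControl. The groups were far apart, with a log2 fold change of 1.02 (pair SD 0.25, 2.03-fold). It was 0.95 without replicate 2, the pair with high interferon-stimulated genes, and passed with any 1 pair left out. In YSCCC the values were 12.3, 27.9 and 57.9 CPM in shRNF213, against 6.40, 3.65 and 37.9 CPM in shControl. The replicates spread widely, and replicate 3 was the highest in both arms. Pair by pair the log2 ratios were 0.94, 2.94 and 0.61, and the fit gave 1.39 (pair SD 1.26). This fold change was 0.74 without replicate 2 and 1.92 without replicate 3, and it was no longer past the threshold without replicate 1 (1.62) or with DESeq2 (1.46). Replicate 3 is also the pair with high stress genes, and the part of these in its ST6GAL1 level was not tested. KKU-100 had 11.6, 19.5 and 12.8 CPM in shRNF213, against 8.59, 13.2 and 7.62 CPM in shControl. Each pair was higher, the groups overlapped, and the log2 fold change of 0.58 (pair SD 0.16) did not pass. ST6GAL1 was higher in 9 of 9 pairs, which held for 1.02% of all genes, with a mean log2 ratio of 1.03 ± 0.76 (SD, n = 9 pairs).

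The share of ST6GAL1 among the 6 sialyltransferases, on the length-corrected TPM scale, was higher in all 9 pairs. This restates the higher ST6GAL1 level in the same libraries and is no separate result. ST6GAL1 made up 1.73%, 4.76% and 11.4% of their summed TPM in YSCCC shRNF213, against 0.837%, 0.531% and 7.62% in shControl. In KKU-100 its share was 5.03%, 8.23% and 5.66% in shRNF213, against 4.08%, 6.28% and 4.02% in shControl. HuCCT1 had 10.6%, 13.7% and 10.7% in shRNF213, against 5.28%, 6.82% and 6.80% in shControl. ST3GAL4 had the largest share of the 6 in all 18 libraries, at 33.5% to 64.2% of the sum. In KKU-100 shRNF213 it was nearly level with ST6GALNAC4 in replicate 2 (33.5% against 33.1%) and replicate 3 (37.9% against 37.7%).

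**Figure D2:**
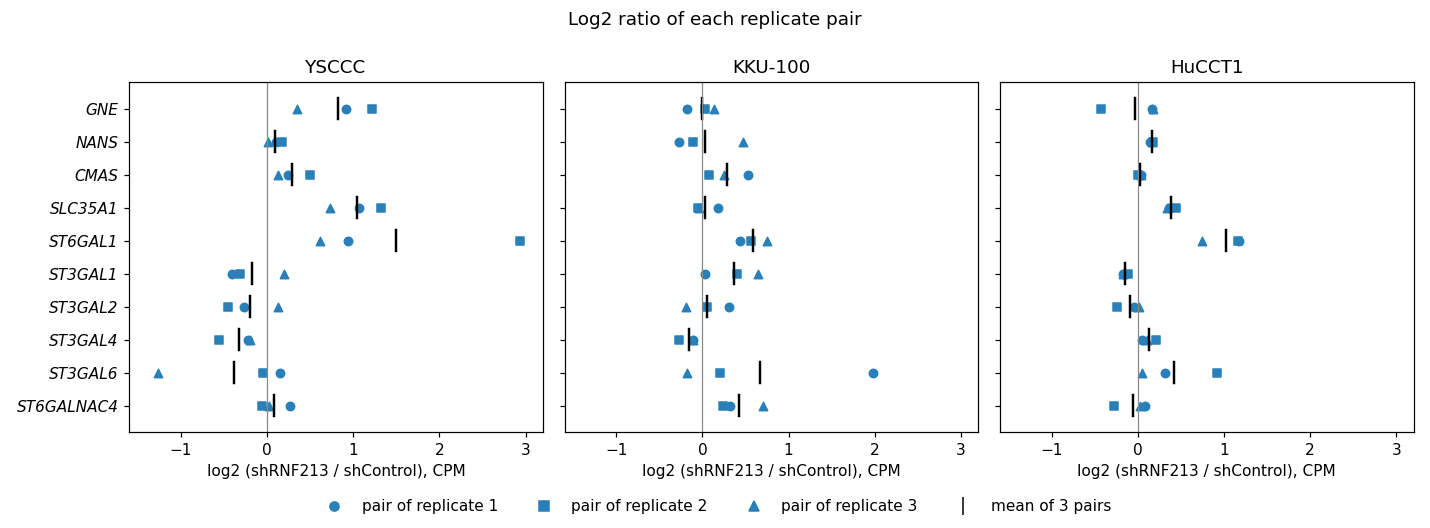
Log2 ratio of shRNF213 to shControl for each same-number pair (points, 3 per line) and the mean of the 3 pairs (bar) for the 10 genes in the 3 lines. All 9 points of ST6GAL1 lie above 0, between 0.43 and 2.94, and ST3GAL6 spreads from -1.27 to 1.98.

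ST3GAL1 and ST3GAL2 cap the galactose of mucin-type O-glycans, and ST3GAL2 also acts on gangliosides. ST3GAL1 in YSCCC stood at 174, 193 and 211 CPM in shRNF213, against 231, 241 and 184 CPM in shControl, lower in 2 of 3 pairs. In KKU-100 it was at 51.2, 50.6 and 32.3 CPM in shRNF213, against 50.2, 38.2 and 20.6 CPM in shControl. HuCCT1 had 69.5, 72.4 and 62.3 CPM in shRNF213, against 78.4, 78.4 and 70.3 CPM in shControl. All KKU-100 pairs were thus higher (log2 fold change 0.35) and all HuCCT1 pairs lower (-0.15), with overlap in each line and neither past the threshold. Without replicate 3 the YSCCC fold change was -0.36 and passed. ST3GAL2 showed no uniform direction in any line. It was at 13.4, 11.6 and 22.4 CPM in shRNF213 and 16.1, 15.98 and 20.5 CPM in shControl of YSCCC. KKU-100 had 24.1, 31.1 and 24.6 CPM in shRNF213 and 19.5, 29.9 and 28.1 CPM in shControl, and HuCCT1 had 12.3, 11.4 and 12.2 CPM in shRNF213 and 12.7, 13.4 and 12.1 CPM in shControl.

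ST3GAL4 and ST3GAL6 cap the N-acetyllactosamine ends on which sialyl Lewis x is built. In YSCCC, ST3GAL4 stood at 165, 142 and 86.1 CPM in shRNF213, against 193, 209 and 98.7 CPM in shControl. All 3 pairs were lower, with replicate 3 low in both arms, and the log2 fold change of -0.33 did not pass. It was -0.39 and passed without replicate 3. In KKU-100 it was at 34.7, 32.5 and 36.5 CPM in shRNF213, against 37.4, 39.2 and 39.3 CPM in shControl, which did not overlap (-0.16). HuCCT1 went the other way in all 3 pairs, with 51.5, 53.1 and 57.5 CPM in shRNF213, against 49.7, 45.8 and 53.3 CPM in shControl (0.13, with overlap). ST3GAL6 was scarce in YSCCC and KKU-100. In YSCCC it had 4.79, 3.95 and 1.55 CPM in shRNF213, against 4.34, 4.07 and 3.74 CPM in shControl. KKU-100 had 30, 58 and 67 counts in shRNF213, against 7, 45 and 70 counts in shControl. HuCCT1 had 22.7, 16.6 and 12.2 CPM in shRNF213, against 18.3, 8.80 and 11.8 CPM in shControl, higher in all 3 pairs with overlap. ST3GAL6 shares 235 exonic bases with DCBLD2 (1637 to 31027 counts) and 107 with ST3GAL6-AS1 (0 to 61 counts), both on the opposite strand. On its own strand it shares 354 with PDLIM1P4, which has no entry in the deposited data. The reads of ST3GAL6 are thus uncertain, most of all at these low counts.

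ST6GALNAC4 adds a second sialic acid, to the N-acetylgalactosamine of O-glycans that ST3GAL enzymes have capped. In KKU-100 it stood at 28.02, 29.2 and 33.0 CPM in shRNF213, against 22.4, 24.8 and 20.2 CPM in shControl. The groups did not overlap, and the log2 fold change of 0.42 did not pass. YSCCC had 45.0, 34.8 and 37.2 CPM in shRNF213, against 37.3, 36.3 and 36.6 CPM in shControl. HuCCT1 had 21.8, 24.3 and 25.8 CPM in shRNF213, against 20.6, 29.4 and 25.2 CPM in shControl. In those 2 lines the groups overlapped and the pairs went both ways.

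Over the 10 genes, the groups did not overlap for 3 in YSCCC (SLC35A1, GNE and CMAS, all higher), where this held for 10.7% of genes. In KKU-100 they did not overlap for CMAS and ST6GALNAC4 (higher) and ST3GAL4 (lower), 3 genes where 12.5% of all genes did so, and in HuCCT1 for ST6GAL1 and SLC35A1 (higher), 2 genes beside 8.52%. All 3 pairs had 1 direction for 6, 5 and 6 of the 10 genes in YSCCC, KKU-100 and HuCCT1, beside 44.4%, 39.6% and 36.2% of all genes.

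Among the control cells, ST3GAL4, ST3GAL1 and ST3GAL6 had wide differences between lines. ST3GAL4 averaged 167 ± 59.6 CPM in YSCCC, 38.6 ± 1.05 CPM in KKU-100 and 49.6 ± 3.74 CPM in HuCCT1 (SD, n = 3 each, as for all means in this paragraph). YSCCC lay above both other lines in every library, by 2.09 over KKU-100 and 1.72 over HuCCT1 on the log2 scale. KKU-100 and HuCCT1 also did not overlap, but their difference (KKU-100 minus HuCCT1, -0.37) did not pass. ST3GAL1 averaged 219 ± 30.1 CPM in YSCCC, 36.3 ± 14.9 CPM in KKU-100 and 75.7 ± 4.67 CPM in HuCCT1. All 3 lines were apart, YSCCC over KKU-100 by 2.56 and over HuCCT1 by 1.499, and KKU-100 under HuCCT1 by a log2 difference of -1.06. ST3GAL6 was highest in HuCCT1 instead. It averaged 4.05 ± 0.298 CPM in YSCCC, 1.92 ± 1.51 CPM in KKU-100 and 12.96 ± 4.83 CPM in HuCCT1, and no lines overlapped. Its difference of YSCCC minus KKU-100, 1.05, did not pass, and the shRNF213 libraries of these lines overlapped. ST3GAL2 averaged 17.5 ± 2.55 CPM in YSCCC, 25.8 ± 5.59 CPM in KKU-100 and 12.7 ± 0.673 CPM in HuCCT1. YSCCC and KKU-100 overlapped for this gene, and YSCCC minus HuCCT1, 0.43 on the log2 scale, did not pass.

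SLC35A1 averaged 14.5 ± 0.974 CPM in YSCCC, 18.01 ± 1.66 CPM in KKU-100 and 9.09 ± 0.767 CPM in HuCCT1 shControl cells, with no overlap between lines. In shRNF213 cells YSCCC was above KKU-100, whereas in shControl cells it was below it, by a log2 difference of -0.34 that did not pass. CMAS was lower in YSCCC, at 65.7 ± 7.64 CPM, and in KKU-100, at 64.8 ± 10.1 CPM, than in HuCCT1, at 94.0 ± 6.50 CPM (SD, n = 3 each). YSCCC and KKU-100 overlapped. ST6GALNAC4 averaged 36.7 ± 0.511 CPM in YSCCC, 22.5 ± 2.29 CPM in KKU-100 and 25.1 ± 4.45 CPM in HuCCT1, with only KKU-100 and HuCCT1 overlapping. GNE was at 83.3 ± 7.77, 44.4 ± 10.8 and 60.6 ± 17.0 CPM in YSCCC, KKU-100 and HuCCT1, and of these lines YSCCC and KKU-100 alone were apart. NANS was at 52.1 ± 6.98, 42.9 ± 12.8 and 41.9 ± 3.71 CPM in the same lines. YSCCC and HuCCT1 were narrowly apart (lowest 46.7 against highest 46.2 CPM), by a log2 difference of 0.28 that did not pass. In shRNF213 cells their NANS levels overlapped. ST6GAL1 was at 15.99 ± 19.0, 9.80 ± 2.98 and 19.0 ± 3.32 CPM in YSCCC, KKU-100 and HuCCT1. KKU-100 lay below HuCCT1 in every library, by a log2 difference of -0.96 that did not pass. The order of the lines for ST6GAL1 depends on YSCCC replicate 3. With all libraries YSCCC minus HuCCT1 was -0.28 and YSCCC minus KKU-100 was 0.68, while without replicate 3 these were -1.86 and -1.15.

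Of the 10 genes, 6 passed in shControl for YSCCC minus HuCCT1, 5 for KKU-100 minus HuCCT1 and 5 for YSCCC minus KKU-100, beside 58.4%, 57.4% and 60.7% of all genes. The groups did not overlap for 8, 7 and 6 genes, beside 67.7%, 66.4% and 64.9%. The shRNF213 libraries were apart the same way for 6, 7 and 4 of these. The share of all genes apart the same way with both hairpins was not computed, so nothing is read from these counts.

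**Figure D3:**
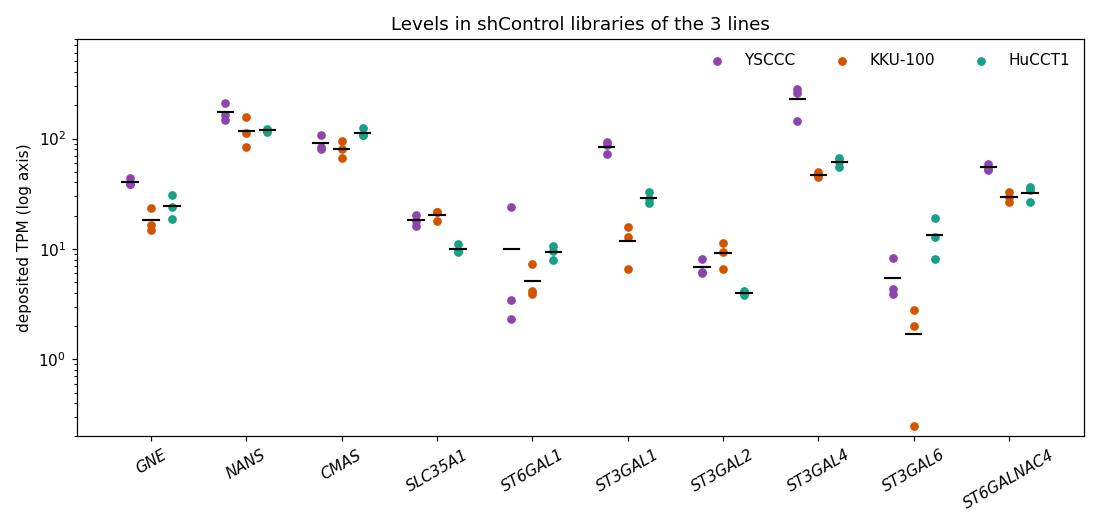
Deposited TPM of the 10 genes in the 9 shControl libraries on a log axis (points, 3 per line; bars, means). ST3GAL4 leads in YSCCC at 228 TPM, NANS leads in KKU-100 and HuCCT1 at 118 TPM each, and the lowest mean is that of ST3GAL6 in YSCCC and KKU-100 and of ST3GAL2 in HuCCT1.

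On the TPM scale, which allows levels of different genes to be set side by side, NANS averaged 173 ± 33.0 TPM in YSCCC, 118 ± 37.6 TPM in KKU-100 and 118 ± 3.95 TPM in HuCCT1 shControl cells (SD, n = 3 each). NANS and CMAS were the leading pair in KKU-100 and HuCCT1, within their spread of each other in both lines. In YSCCC, ST3GAL4 came first at 228 ± 74.1 TPM, within its spread of NANS. SLC35A1 stood lower than the 3 synthesis enzymes in YSCCC and HuCCT1, at 18.1 ± 2.03 and 10.0 ± 0.846 TPM. In KKU-100, SLC35A1 (20.4 ± 2.13 TPM) and GNE (18.2 ± 4.51 TPM) did not differ beyond their spread. The lowest gene was ST3GAL6 in YSCCC (5.48 ± 2.37 TPM) and KKU-100 (1.69 ± 1.31 TPM), and ST3GAL2 in HuCCT1 (4.01 ± 0.152 TPM). Deposited TPM and counts do not always go together. In YSCCC shControl, replicate 3 had the lowest ST3GAL6 CPM (3.74) and the highest ST3GAL6 TPM (8.21), and MGAT2 is a further case given below. These rankings thus hold for the deposited TPM only.

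Beyond the 10 genes, 64 further genes of the pathway were tested in 5 lists. These were other sialyltransferases (14), precursor supply (10), sialidases and turnover (8), genes for the galactose-bearing acceptors (20) and a sialyl Lewis list (12). The last holds fucosyltransferases, among them FUT8, and genes that make or carry GDP-fucose (SLC35C1, GMDS, FCSK and FPGT). In YSCCC 53 passed the filter on low counts. With the hairpin 1 of them rose and 7 fell (edgeR, Benjamini-Hochberg over all genes), beside 8.25% of all genes tested in either direction. The shares of all genes that rose or fell are not given here. These lists leave out the members, which were taken with their fold changes known. Nothing is therefore read from the split of directions. The median log2 fold change of the 53 was -0.05, beside 0.01 over all genes. In the fit without the replicate block 0 passed. In KKU-100 0 of 42 passed, with 5 at an unadjusted p under 0.05 (2391 of 14915 over all genes) and 0 by DESeq2. In HuCCT1 0 of 52 passed, with 9 at an unadjusted p under 0.05 (1743 of 15747 over all genes) and 0 by DESeq2.

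ST6GALNAC3, which sialylates gangliosides and O-glycans, rose in YSCCC to 15.2 ± 4.03 CPM in shRNF213, against 7.56 ± 3.19 CPM in shControl (log2 fold change 1.03 ± 0.17 SE, adjusted p = 0.00319, n = 3, edgeR). It was higher in 3 of 3 pairs. The gene had 0 to 4 counts in HuCCT1 and 0 counts in all KKU-100 libraries. ST3GAL5, the enzyme that makes the ganglioside GM3, fell in YSCCC to 6.39 ± 1.41 CPM in shRNF213, against 9.72 ± 2.60 CPM in shControl (-0.59 ± 0.15 SE, edgeR adjusted p = 0.0294). Of the 14 other sialyltransferases 8 were tested there, and these were the 2 that changed. None of the 10 genes of precursor supply passed.

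Among the sialidase and turnover genes, 1 of 6 tested changed in YSCCC. NEU1, the lysosomal sialidase, fell to 187 ± 14.96 CPM in shRNF213, against 252 ± 29.3 CPM in shControl (-0.43 ± 0.09 SE, edgeR adjusted p = 0.0115). In KKU-100, NEU1 was nearly undetected, with 4, 2 and 0 counts in shRNF213 and 1, 5 and 3 counts in shControl. Of the acceptor genes 3 of 19 fell in YSCCC. SLC35A2, the Golgi carrier of UDP-galactose, was at 62.9 ± 15.2 CPM in shRNF213, against 90.3 ± 5.44 CPM in shControl (-0.55 ± 0.11 SE, edgeR adjusted p = 0.00984). MGAT1 and MGAT5, which start branches of N-glycans, changed by -0.37 (adjusted p = 0.0228) and -0.39 (adjusted p = 0.033) in the same fit. Of the tested genes of the sialyl Lewis list, 2 of 10 fell in YSCCC, both fucosyltransferases. FUT4, which makes Lewis x structures, was at 7.46 ± 1.57 CPM in shRNF213, against 12.5 ± 0.661 CPM in shControl (-0.76 ± 0.15 SE, edgeR adjusted p = 0.00948). FUT8, which adds the core fucose of N-glycans, was at 24.0 ± 7.11 CPM in shRNF213, against 35.7 ± 12.4 CPM in shControl (-0.55 ± 0.12 SE, edgeR adjusted p = 0.0152). All 7 genes that fell were lower in 3 of 3 pairs. Averaged over the lines 1 of 57 further genes tested passed, beside 2.9% of all genes, and this was FUT4 (-0.46 ± 0.09 SE, edgeR adjusted p = 0.0152). These calls depend on single pairs: without replicate 1 the count was 1 (SLC35A2), without replicate 2 it was 2 (FUT4 and ST6GALNAC3), and without replicate 3, the pair with high stress genes, it was 10.

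**Figure D4:**
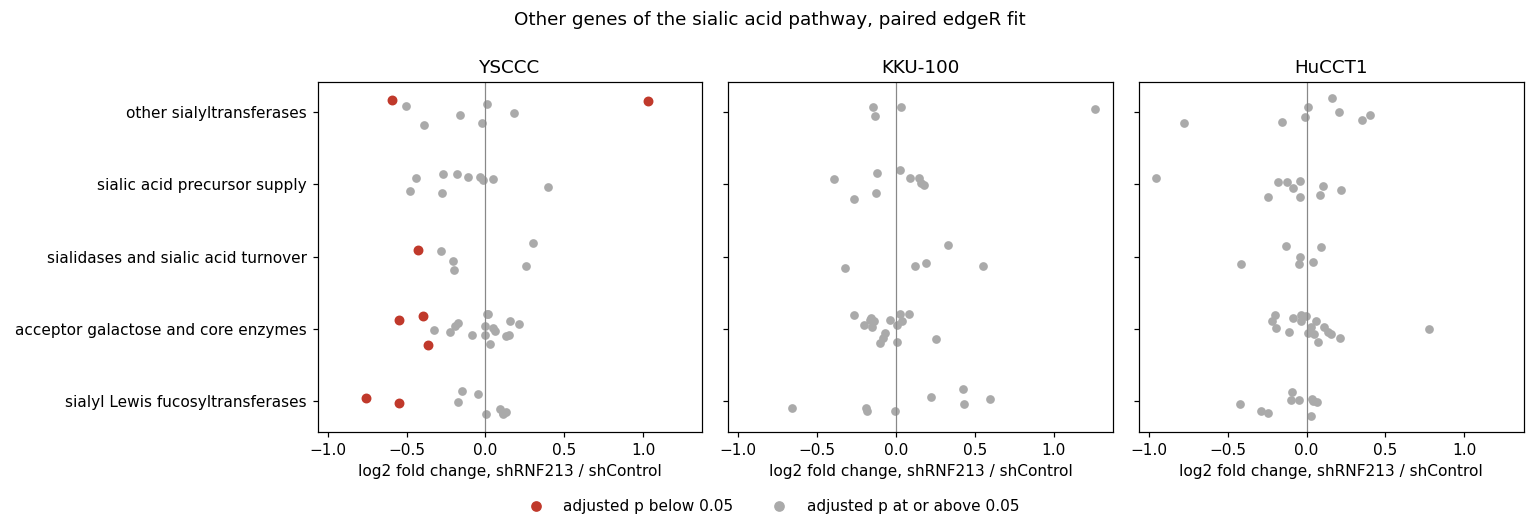
Fitted log2 fold change, shRNF213 over shControl, of the tested genes of the 5 further lists in each line (1 point per gene, red where the adjusted p is below 0.05). In YSCCC 8 of 53 points are red, 7 of them left of 0, and in KKU-100 and HuCCT1 0 are red.

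The hairpin effect differed between YSCCC and KKU-100 for 3 of the 57 further genes tested in the fit of all 18 libraries, beside 2.63% of all genes, and for 0 in both other pairs of lines. FUT8 differed by -1.14 ± 0.23 SE (edgeR adjusted p = 0.0207), being lower in YSCCC knockdown cells and having a log2 fold change of 0.59 in KKU-100 that did not pass. ST3GAL5 differed by -1.76 ± 0.44 SE (edgeR adjusted p = 0.0497). It had 4.01, 5.20 and 8.17 CPM in KKU-100 shRNF213, against 0.362, 3.89 and 4.39 CPM in shControl, with shControl replicate 1, at 7 counts, far below the other libraries. CTSA, the protective protein of NEU1, differed by -0.76 ± 0.18 SE (edgeR adjusted p = 0.0457). Without replicate 1, and likewise without replicate 3, none of the further genes passed in this comparison. In shControl cells 40 of 56 further genes differed for YSCCC minus HuCCT1, 41 for KKU-100 minus HuCCT1 and 37 for YSCCC minus KKU-100, beside the shares of all genes given above.

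The genes whose log2 CPM ran most like that of each member over the 18 libraries were found among 11868 genes by Pearson's r, as a description, since all points share the 3 lines. For ST6GAL1 these were NDUFAF7 (0.874), ACBD6 (0.821) and PLAG1 (0.799). For SLC35A1 they were ACTR6 (0.952), TDG (0.923) and RXRA (0.91), and for GNE SYNCRIP (0.947), HDAC2 (0.935) and PLEKHF2 (0.92). The closest to ST3GAL4 was TMPRSS11E (0.986), to ST3GAL1 SH3BP2 (0.972), to ST3GAL2 FAM174A (0.966), to ST3GAL6 C8orf82 (0.965), to ST6GALNAC4 MOCS3 (0.895), to NANS TIPRL (0.873) and to CMAS EIF2D (0.923).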

How the data were processed

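Polyadenylated RNA of 18 cell line libraries was sequenced, 3 biological replicates in each of 6 groups. Per the submitters' processing notes the build was GRCh38, and the tools named are STAR 2.5.1b, HTSeq 0.6.1p1, StringTie 2.1.6, DESeq2 1.34.0, FastQC 0.11.9 and Picard 1.139; their roles, the filters and the use of strand are not stated there. Per the file headers, the deposited values are raw counts per gene, TPM, FPKM, a coverage signal, and counts scaled by the authors with DESeq2, which equal the raw count times 1 constant per library (0.873 to 1.13). Only counts were tested; the deposited TPM served for levels between genes, and the deposited FPKM and coverage signal were not used.

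Each line was fitted alone with edgeR 4.0.16 under R 4.3.3 (quasi-likelihood F test, two-sided, TMM factors, filterByExpr with a minimum count of 10 and minimum total of 15), with the replicate number as a block and Benjamini-Hochberg adjustment at 0.05 over 15747 (HuCCT1), 16932 (YSCCC) and 14915 (KKU-100) genes. A fit of all 18 libraries (19143 genes) gave differences of the effect between lines and its mean, and a fit of 9 shControl libraries (18010 genes) gave the line differences. The fits were tested on simulated data. Same-number libraries deviated together from the means of their groups, with correlations over genes of 0.79, 0.717 and 0.766 (HuCCT1), 0.817, 0.724 and 0.902 (YSCCC), and 0.73, 0.596 and 0.396 (KKU-100), where 0.1 was the minimum set; of the other number pairs, YSCCC 1 with 2 gave 0.656 and 0.516 and KKU-100 2 with 3 gave 0.128. The numbers are therefore treated as pairs; no label says what they share.

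The members and the gene lists were chosen with earlier results of these data known. Named were all members, RNF213, up to 4 called genes per further list and line, genes whose effect differed between lines, and for each member the 3 most alike genes of at least 5 CPM, of which 1 is printed for 7 members. Alternatives were no block, RLE size factors, no filter, DESeq2 1.42.0, each pair left out and the deposited TPM (pseudocount 0.1), the last for hairpin effects chosen after seeing the data. P-values measure the spread between these replicates.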

Additional observations from a re-analysis of the deposited data

Results flagged for a closer look

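The hairpin effect differed between YSCCC and KKU-100, by a test of the difference over all genes, for ST3GAL5 (-1.76, YSCCC minus KKU-100 on the log2 scale), FUT8 (-1.14) and CTSA (-0.76). SLC35A1 differed by 1.01 in the same fit, which is a description since the gene was chosen with this contrast known.

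Pairs went opposite ways in 2 lines for a pair of the sialyltransferases, and those differences, not past the threshold in the fit, are given as a description that was not tested further. For ST3GAL1 all 3 pairs were higher with the hairpin in KKU-100 and all 3 lower in HuCCT1, a difference of 0.51 (KKU-100 minus HuCCT1). For ST3GAL4 all 3 pairs were lower in YSCCC and all 3 higher in HuCCT1, a difference of -0.45 (YSCCC minus HuCCT1), and all 3 were lower in KKU-100, a difference of -0.29 (KKU-100 minus HuCCT1). No cause was tested for any of these values.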

How the results depend on the processing

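Without the replicate block, members past the threshold numbered 0 in HuCCT1 and 0 in YSCCC, further pathway genes 0 in YSCCC, and genes of those lists whose effect differed between YSCCC and KKU-100 0. The cause was not tested. Leaving out 1 pair at a time gave 1 to 6 members past the threshold in YSCCC and 1 to 10 further genes, 0 to 2 further genes in KKU-100, and 0 to 2 genes whose effect differed between YSCCC and KKU-100. Leaving out 1 shControl replicate number gave 2 to 4 members past the threshold for YSCCC minus HuCCT1. The shares of all genes past the threshold under these settings are not given here. Whether these counts moved with the number of all genes called therefore cannot be told from them. None of the settings run reversed a called value. Member fold changes under other settings moved by less than the spread between pairs in 237 cases. The 3 exceptions were HuCCT1 values from the deposited TPM, 0.29 for SLC35A1, 0.12 for NANS and -0.02 for CMAS. Of the shControl differences 219 did so and 21 moved more. For the hairpin effects, leaving 1 of 3 pairs out cannot move a mean ratio by more than the spread between pairs. Those cases were thus bound to count as unmoved, and the 237 does not measure robustness. ST6GAL1 in YSCCC is among them, although it ran from 0.74 to 1.92 with 1 pair left out. Depth limits ST3GAL6 in KKU-100 (7 to 70 counts) and the further genes filtered out.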

Other observations

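NEU1, at chr6:31857659-31862822 on the minus strand (GRCh38), was singled out after its values were seen. It had 4, 2 and 0 counts in KKU-100 shRNF213 and 1, 5 and 3 counts in shControl, against 4771 to 7300 counts over the YSCCC libraries and 2006 to 2774 over the HuCCT1 libraries. Its neighbours were counted in KKU-100, with 3532 to 5670 counts for SNHG32 and 426 to 1375 for EHMT2, while SLC44A4 had 0 to 2 counts in KKU-100, 6 to 13 in YSCCC and 595 to 694 in HuCCT1. What lies behind the low NEU1 count was not tested.

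MGAT2, which starts a branch of N-glycans, had 0 to 14 counts in the 18 libraries and was left out by the filter in the fits of single lines and of the shControl libraries. In the fit of all 18 libraries it was tested and did not pass. Its deposited TPM ran from 24.8 to 108.5. The deposited counts and TPM thus disagree for this gene.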
